A study of Homo sapiens with 8 samples.

Results

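The mismatch repair genes examined here were MSH6, MSH3, PMS1, PMS2, MLH3 and EXO1, chosen by name, 6 of the 38148 genes in an mRNA-seq table of HT29 cells. All 6 passed the filter on low values, a mean of at least 1 RPM (reads of a gene scaled to library size) over the 8 libraries. HT29 cells come from a human colorectal cancer. The drug, selumetinib, blocks MEK, which phosphorylates and activates ERK. HT29 cultures, left untreated or kept in 1 μM selumetinib for 24 h, were all fixed with glyoxal, permeabilized, stained with an antibody to cyclin B1 (CCNB1, a protein that accumulates in G2) and sorted, so that every group shared the fixation and the stain. Each treatment gave a CCNB1-negative and a CCNB1-positive fraction, and each of these 4 groups had 2 poly(A)-selected libraries. The study asked whether replication and repair genes stay low in cells that enter the cell cycle during MEK inhibition. In another colorectal cancer line of the study, only part of the cells that had just replicated DNA stained for CCNB1. The CCNB1-negative fraction may thus hold cells in S phase as well as in G1.

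Mismatch repair removes bases that were paired wrongly, and small loops left by slippage, behind the replication fork. MutS complexes find the error, MutL complexes are recruited and cut the new strand, an exonuclease removes the stretch with the error, and the gap is refilled and sealed. Complexes with MSH6 recognise base mismatches and short loops, and those with MSH3 recognise larger loops, so that the level of each gene bears on which errors are recognised.

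For each of the 8 libraries, the title and growth medium in the sample records name the opposite treatment and fraction to the short description. Groups follow the descriptions, which are also the column names of the table. If the titles were right, the responses below would swap between fractions and change sign, the fraction differences would swap between treatments and change sign, and the interaction would not move. CCNB1 mRNA was higher in the libraries described as CCNB1-positive by 2.09 ± 0.21 (SE, log2) in untreated cells and by 5.08 ± 0.21 in treated cells. Under the titles it would be lower in the CCNB1-positive libraries of both treatments. Recovered reads on genes ranged from 12696860 to 23916160 per library and were fewest in treated CCNB1-negative cells. All 7 epithelial markers were detected in each library, although CDX2 reached only 2.09 to 6.81 RPM, and they summed to between 9930 and 11016 RPM in untreated and between 4578 and 8247 RPM in treated libraries. After selumetinib 2 of them were higher (CDX2 and VIL1) and 3 lower (EPCAM, KRT8 and KRT18) in CCNB1-negative cells, and the first 2 were higher and EPCAM lower in CCNB1-positive cells (limma). Of all genes tested, 38.2% were higher and 35.8% lower in CCNB1-negative cells, and 38.0% and 27.3% in CCNB1-positive cells. PTPRC, PECAM1 and COL1A1, markers of leukocytes, endothelium and fibroblasts, summed to between 1.10 and 2.04 RPM in untreated and between 2.76 and 5.86 RPM in treated libraries, and PTPRC had no read in 1 library. COL1A1, the only one of these tested, was higher after selumetinib by 1.81 ± 0.49 and 2.19 ± 0.49 (SE, log2, limma adjusted p = 0.0043 and 0.0015), at 0.31 to 5.36 RPM. The part of these markers in the differences below was not tested. The 6 ERK target genes were all lower after selumetinib in both fractions (limma, all adjusted p under 0.05), with DUSP6, a phosphatase gene induced by ERK, lower by 1.75 and 1.06 on the log2 scale. Under the titles these 6 genes would all be higher after the MEK inhibitor.

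The promoters of MSH6, EXO1, MSH3 and PMS2 are shown because each contains letters of an E2F element, the sequence through which E2F factors act on genes of G1/S. Each stretch runs from 120 bases before the RefSeq start site to 20 bases from it on, in the direction of transcription (GRCh38.p14). Capitals mark E2F letters and CCAAT boxes.
MSH6, chr2:47783025-47783164, plus strand: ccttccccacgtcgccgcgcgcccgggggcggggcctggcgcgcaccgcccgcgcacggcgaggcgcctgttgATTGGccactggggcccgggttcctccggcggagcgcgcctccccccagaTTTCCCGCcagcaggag
EXO1, chr1:241848084-241848223, plus strand: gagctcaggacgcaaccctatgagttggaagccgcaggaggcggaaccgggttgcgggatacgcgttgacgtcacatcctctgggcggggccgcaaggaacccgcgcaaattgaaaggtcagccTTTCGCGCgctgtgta
MSH3, chr5:80654532-80654671, plus strand: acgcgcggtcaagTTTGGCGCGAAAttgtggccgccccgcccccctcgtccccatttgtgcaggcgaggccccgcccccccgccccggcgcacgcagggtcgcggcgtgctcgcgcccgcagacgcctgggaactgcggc
PMS2, chr7:6009087-6009226, minus strand: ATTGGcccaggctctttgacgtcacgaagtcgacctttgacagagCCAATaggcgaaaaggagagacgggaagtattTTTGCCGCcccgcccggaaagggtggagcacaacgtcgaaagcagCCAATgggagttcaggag

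The letters searched were TTTCCCGC, TTTGGCGC, TTTCGCGC and TTTGCCGC for E2F, CCAAT, and TTTGAA for the cell cycle homology region, on both strands of the 300 bases from 250 before the start to 50 from it on. Only the first listed start of each gene was searched, although MSH6 has 4 listed windows and EXO1 and PMS2 have 2 each. E2F letters were found in 4 of the 6 members and in 3.33% of 27305 RefSeq promoters. In MSH6 they lay at bases 4 to 11 and in EXO1 at bases 5 to 12, counting the first transcribed base as 1. In PMS2 they lay at bases -43 to -36, and in MSH3 2 overlapping matches on opposite strands spanned bases -107 to -96. PMS1 and MLH3 had no such letters in this window. CCAAT was found in MSH6, PMS1 and PMS2 and in 35.7% of all promoters, and TTTGAA in none of the members and in 15.4% of all promoters. The RefSeq start of MSH6 used here lies within the gene as the table gives it, which begins upstream at 47695530. These matches describe letters and not bound sites.

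Values below are the deposited log2 values, which are log2 of reads with every library scaled to the largest one. Levels in RPM are instead scaled to the recovered reads on genes of each library. Against untreated libraries, treated ones stand higher in RPM than on the deposited scale. Rises after selumetinib are thus larger in RPM, and falls smaller. Differences are in log2 units from limma with all 4 groups in the model, and a gene was called at an adjusted p under 0.05 over the 14219 genes tested. Nothing in the records says that the 2 libraries of a group came from separate cultures, so p-values measure the spread between libraries, which may be technical.

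Selumetinib lowered MSH6 and EXO1 and raised MSH3 in both fractions, as the plot of values by library shows. In CCNB1-negative cells 5 of the 6 members were called, 2 higher (MSH3 and MLH3) and 3 lower (EXO1, MSH6 and PMS1), where 74.1% of all genes tested were called, 38.2% higher and 35.8% lower. In CCNB1-positive cells 3 of 6 were called, MSH3 higher and EXO1 and MSH6 lower, where 65.3% of all genes were called, 38.0% higher and 27.3% lower. In the latter fraction, quantile normalization gave 3978 higher and 4392 lower genes in place of 5400 and 3888. The share of members called was near that of all genes in both fractions. The median difference over the members was -0.19 and -0.11 in these fractions, against 0.05 and 0.17 over all genes.

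**Figure D1:**
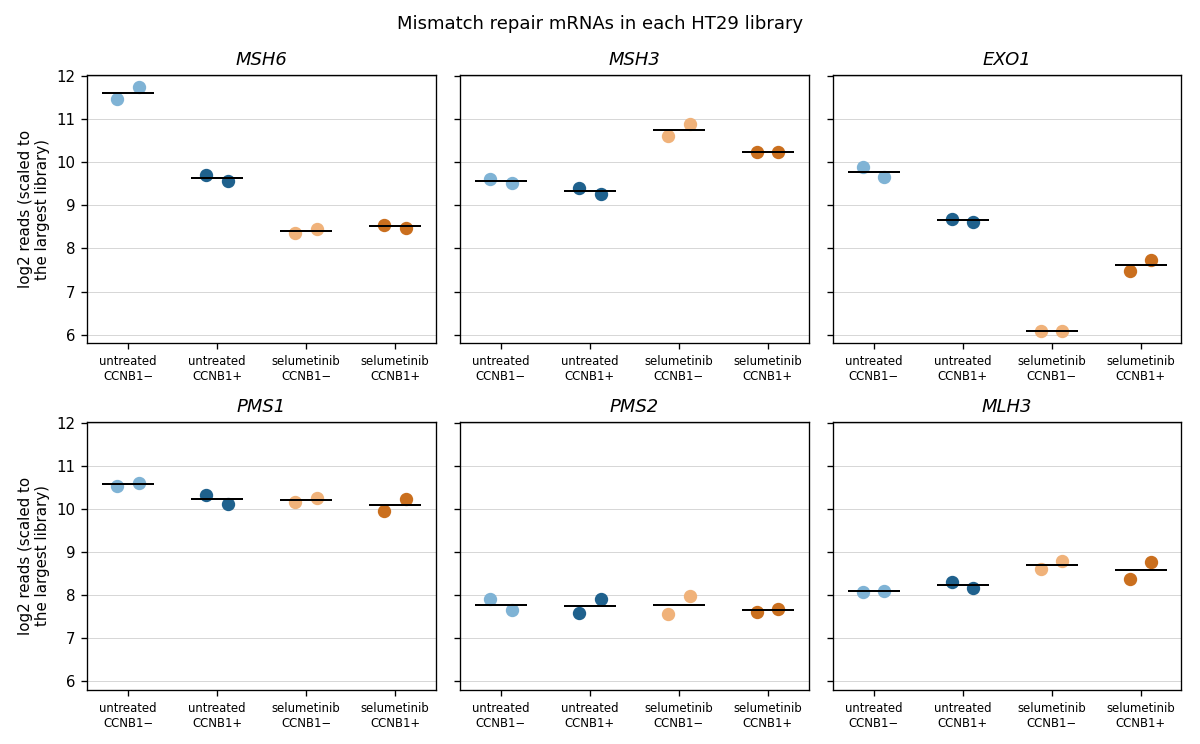
Deposited log2 value (log2 reads scaled to the largest library, y axis) of each mismatch repair gene in each of the 8 HT29 libraries, with points for libraries and lines for the means of the 2 libraries of a group. MSH6 and EXO1 were highest in untreated CCNB1-negative cells, MSH3 was highest in treated CCNB1-negative cells, and PMS2 lay between 7.56 and 7.97 in all libraries.

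MSH6 (ENSG00000116062, chromosome 2 of GRCh38, 47695530 to 47810101, plus strand) encodes the MutS subunit for base mismatches. Its log2 values were 11.47 and 11.74 in untreated CCNB1-negative cells, 9.71 and 9.56 in untreated CCNB1-positive cells, 8.35 and 8.46 in treated CCNB1-negative cells and 8.55 and 8.48 in treated CCNB1-positive cells. Both untreated groups stood apart from each other and from all treated libraries, while the treated fractions lay close together. Behind these values were 2620 and 2713 reads in untreated CCNB1-negative cells and between 207 and 333 reads in the treated libraries. Selumetinib lowered MSH6 9.20-fold in CCNB1-negative cells (-3.20 ± 0.16, SE, limma adjusted p = 2.2e-09) and 2.18-fold in CCNB1-positive cells (-1.12 ± 0.16, adjusted p = 3.4e-05). In bulk libraries such as these, fewer cells with the transcript and less transcript per cell cannot be told apart. In untreated cells MSH6 was 3.91-fold lower in the CCNB1-positive fraction (-1.97 ± 0.16, adjusted p = 7e-06). In treated cells the fractions differed by 0.11 (95% interval -0.23 to 0.45, adjusted p = 0.64), and this difference was -0.00 with quantile normalization. The order was thus untreated CCNB1-negative, untreated CCNB1-positive, then both treated groups, which did not differ beyond their spread.

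MSH3 (ENSG00000113318, chromosome 5, 80654652 to 80876815, plus strand), the MutS subunit for larger loops, moved the other way. Its log2 values were 9.61 and 9.51 in untreated CCNB1-negative cells, 9.39 and 9.26 in untreated CCNB1-positive cells, 10.60 and 10.88 in treated CCNB1-negative cells and 10.23 and 10.23 in treated CCNB1-positive cells. Every treated library lay above every untreated one. Selumetinib raised MSH3 2.26-fold in CCNB1-negative cells (1.18 ± 0.15, SE, limma adjusted p = 8.7e-06) and 1.87-fold in CCNB1-positive cells (0.90 ± 0.15, adjusted p = 0.00015). These rises held under each of the 18 alternatives run for each fraction, with differences between 1.03 and 1.49 and between 0.84 and 1.16. The untreated fractions differed by -0.24 (95% interval -0.56 to 0.09, adjusted p = 0.58). In treated cells MSH3 was lower in the CCNB1-positive fraction by 0.51 ± 0.15 on the log2 scale (adjusted p = 0.029). This last call was lost without treated CCNB1-negative replicate 2 (-0.37, adjusted p = 0.19), treated CCNB1-positive replicate 1 (adjusted p = 0.14) or replicate 2 (adjusted p = 0.11), and reached an adjusted p of 0.050 with only the groups compared in the model.

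Because both genes fill the same place in the MutS complexes, their levels were set side by side as RPM per kilobase of the canonical transcript, of 4265 bases for MSH6 and 4443 for MSH3. This comparison was chosen after the values were seen and has no test. In untreated CCNB1-negative cells MSH6 stood at 30.6 ± 3.75 (SD, n = 2) and MSH3 at 7.11 ± 0.43. In treated CCNB1-negative cells MSH6 stood at 3.66 ± 0.24 and MSH3 at 17.8 ± 2.73. These levels are scaled to reads on genes, and the rise of MSH3 is larger in them than the 2.26-fold of the deposited scale. With limma-voom on recovered reads this rise was 1.31 on the log2 scale, in place of 1.18. MSH3 thus made up 20.9% and 17.0% of the RPM per kilobase of both genes in the untreated CCNB1-negative libraries, and 82.0% and 83.8% in the treated ones. In the CCNB1-positive fraction the share was 43.4% and 43.8% in untreated cells and 75.4% and 76.4% in treated cells. MSH6 was the more abundant transcript in all 4 untreated libraries and MSH3 in all 4 treated libraries, and this order, taken within a library, does not depend on how libraries were scaled.

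**Figure D2:**
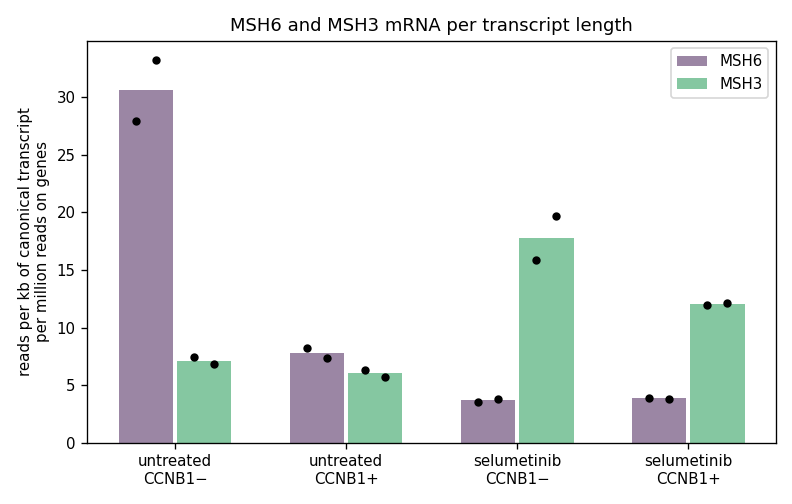
RPM per kilobase of canonical transcript (y axis, linear from 0) for MSH6 and MSH3 in the 4 groups, with bars for the means of 2 libraries and points for the libraries. The bar of MSH6 is above that of MSH3 in both untreated groups and below it in both treated groups.

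EXO1 (ENSG00000174371, chromosome 1, 241847967 to 241895148, plus strand) encodes the exonuclease that removes the strand with the error. Its log2 values were 9.89 and 9.65 in untreated CCNB1-negative cells, 8.69 and 8.61 in untreated CCNB1-positive cells, 6.08 and 6.08 in treated CCNB1-negative cells and 7.48 and 7.74 in treated CCNB1-positive cells. None of the 4 groups overlapped another, and the treated CCNB1-negative libraries held only 43 and 40 reads on EXO1, against 876 and 639 in the untreated ones. Selumetinib lowered EXO1 12.9-fold in CCNB1-negative cells (-3.69 ± 0.19, SE, limma adjusted p = 3.6e-09) and 2.05-fold in CCNB1-positive cells (-1.03 ± 0.19, adjusted p = 0.00036). The fractions stood in opposite order in untreated and in treated cells. EXO1 was lower in the CCNB1-positive fraction of untreated cells by 1.12 ± 0.19 on the log2 scale (adjusted p = 0.0038) and higher in that of treated cells by 1.53 ± 0.19 (adjusted p = 6.9e-05). The difference in untreated cells had an adjusted p of 0.068 without untreated CCNB1-negative replicate 1.

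The 3 MutL genes changed less, and their differences were between -0.36 and 0.61 in the 2 responses. PMS1 (ENSG00000064933, chromosome 2, 189784085 to 189877629, plus strand) encodes a MutL subunit whose complex has no settled part in repair. Its log2 values were 10.53 and 10.61 in untreated CCNB1-negative cells, 10.33 and 10.11 in untreated CCNB1-positive cells, 10.16 and 10.26 in treated CCNB1-negative cells and 9.95 and 10.24 in treated CCNB1-positive cells. The untreated CCNB1-negative libraries were the highest, and the other 3 groups overlapped. Selumetinib lowered PMS1 in CCNB1-negative cells by 0.36 ± 0.15 on the log2 scale (limma adjusted p = 0.044). The adjusted p was between 0.054 and 0.17 when any 1 of the untreated libraries or of the treated CCNB1-negative libraries was left out, and the difference was -0.05 (adjusted p = 0.78) with libraries scaled to nuclear genes without MALAT1. The response in CCNB1-positive cells was -0.12 (95% interval -0.45 to 0.21, adjusted p = 0.50). In CCNB1-negative cells limma-voom on recovered reads gave -0.23 (adjusted p = 0.2).

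MLH3 (ENSG00000119684, chromosome 14, 75013764 to 75051532, minus strand) encodes a MutL subunit best known from meiotic crossing over. Its log2 values were 8.08 and 8.10 in untreated CCNB1-negative cells, 8.30 and 8.16 in untreated CCNB1-positive cells, 8.60 and 8.80 in treated CCNB1-negative cells and 8.37 and 8.78 in treated CCNB1-positive cells. Each treated library lay above the untreated libraries of its own fraction. Selumetinib raised MLH3 1.52-fold in CCNB1-negative cells (0.61 ± 0.19, SE, limma adjusted p = 0.010), a call that was lost without treated CCNB1-negative replicate 2 (0.51, adjusted p = 0.061) and with quantile normalization (0.47, adjusted p = 0.055). In CCNB1-positive cells the difference was 0.35 (95% interval -0.06 to 0.76, adjusted p = 0.12). It was -0.02 with quantile normalization and 0.60 (adjusted p = 0.016) with libraries scaled to nuclear genes without MALAT1. The fractions differed by 0.14 (95% interval -0.27 to 0.55) in untreated and by -0.12 (-0.53 to 0.29) in treated cells.

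PMS2 (ENSG00000122512, chromosome 7, 5970925 to 6009106, minus strand) encodes the MutL subunit that cuts the new strand. Its log2 values were 7.90 and 7.66 in untreated CCNB1-negative cells, 7.58 and 7.91 in untreated CCNB1-positive cells, 7.56 and 7.97 in treated CCNB1-negative cells and 7.62 and 7.69 in treated CCNB1-positive cells. All 4 groups overlapped, and no comparison was called. The response was -0.02 (95% interval -0.49 to 0.45) in CCNB1-negative and -0.09 (-0.57 to 0.38) in CCNB1-positive cells, so that changes of about this size remain possible at 120 to 221 reads per library. With quantile normalization the latter was -0.73 (limma adjusted p = 0.021). The genome holds near-identical copies of PMS2 exons, for which the table analysed here had 0 rows, so reads could have been shared with such copies and the counts of PMS2 are uncertain.

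Per length, PMS1 was the most abundant of the 6 mRNAs in untreated and treated CCNB1-positive cells, at 15.8 ± 1.76 and 15.6 ± 2.34 RPM per kilobase (SD, n = 2). MSH6 led in untreated CCNB1-negative cells, and MSH3 (17.8 ± 2.73) and PMS1 (17.2 ± 1.10) lay within their spread of each other in treated CCNB1-negative cells. EXO1 went from 10.6 ± 1.33 in untreated to 0.902 ± 0.016 in treated CCNB1-negative cells and was the lowest of the 6 there. PMS2 and MLH3 stayed between 1.45 and 2.64 in every library.

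Between fractions, MSH6 and EXO1 differed in untreated cells, and EXO1 and MSH3 in treated cells. In untreated cells 2 of 6 members were called, MSH6 and EXO1, both lower in CCNB1-positive cells, where 2.87% of all genes were called, 1.36% higher and 1.51% lower. In treated cells 2 of 6 were called, EXO1 higher and MSH3 lower in CCNB1-positive cells, where 21.6% of all genes were called, 13.8% higher and 7.87% lower. With 6 members chosen by name, these counts describe the members only. The shares of all genes depend on the model. With same-numbered fractions taken as pairs, which the records do not state, 1923 and 6671 genes were called in place of 408 and 3077. The remaining differences between fractions, those of PMS1, PMS2 and MLH3 in both treatments, of MSH3 in untreated and of MSH6 in treated cells, were between -0.35 and 0.14.

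**Figure D3:**
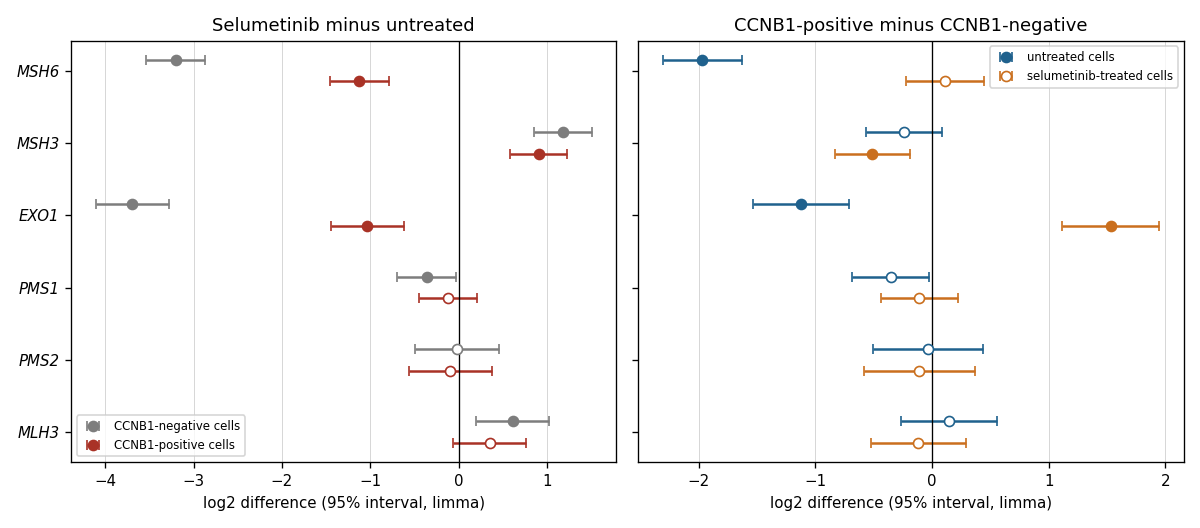
log2 differences (x axis) with 95% intervals from limma for each mismatch repair gene, selumetinib minus untreated within each fraction on the left and CCNB1-positive minus CCNB1-negative within each treatment on the right. Filled points have an adjusted p under 0.05 and open points do not. MSH6 and EXO1 lie left of 0 and MSH3 right of 0 in both fractions on the left, and EXO1 lies on opposite sides of 0 in untreated and treated cells on the right.

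Whether the response itself differed between fractions was tested with the interaction term. It was called for 2 of 6 members, EXO1 (2.66 ± 0.27, SE, limma adjusted p = 2.3e-05) and MSH6 (2.08 ± 0.22, adjusted p = 3.1e-05), where 5.33% of all genes were called and 4.99% in this direction. Both fell more in CCNB1-negative than in CCNB1-positive cells. The responses of MSH3 in the 2 fractions differed by -0.27 (95% interval -0.73 to 0.19), those of MLH3 by -0.26 (-0.84 to 0.32), those of PMS1 by 0.24 (-0.22 to 0.71) and those of PMS2 by -0.07 (-0.74 to 0.60). None of these 4 was called, and their intervals still allow differences of 0.71 or more in at least 1 direction.

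Genes that carry out the later steps of mismatch repair, the clamp PCNA, its loader (RFC1 to RFC5), the RPA proteins that coat single-stranded DNA, DNA polymerase delta and ligase 1, were taken as a list of 14, and all were tested. The list was chosen with earlier results of these data known. Selumetinib lowered 13 of the 14 in CCNB1-negative cells and raised POLD4, with a median of -2.16. In CCNB1-positive cells it lowered 11 and raised POLD4, with a median of -0.78, and POLD3 and RFC1 were not called. Of all genes tested, 35.8% were lower and 38.2% higher in CCNB1-negative cells, and 27.3% and 38.0% in CCNB1-positive cells. PCNA fell the most of the 14 in both fractions, by 4.11 ± 0.17 and 1.74 ± 0.17 on the log2 scale (SE, limma adjusted p = 7.2e-10 and 1.8e-06). LIG1, the ligase, was at -2.19 ± 0.16 and -0.70 ± 0.16, and POLD1, the catalytic subunit of polymerase delta, at -1.94 ± 0.14 and -0.87 ± 0.14, all called. POLD4, a small subunit of polymerase delta, rose by 0.56 ± 0.15 (adjusted p = 0.0038) and 0.36 ± 0.15 (adjusted p = 0.049), and the second call was lost when any 1 untreated library or any 1 treated CCNB1-positive library was left out.

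The responses of MSH6 and EXO1 lay among those of the later-step genes in both fractions, as the plot of both responses shows, and those of MSH3 and MLH3 lay on the same side of 0 as that of POLD4. In treated cells 12 of the 14 genes were higher in the CCNB1-positive fraction (median 0.98) and RFC3, a clamp loader subunit, was the highest at 2.27 ± 0.15 (limma adjusted p = 8.5e-08). In untreated cells 3 were lower in that fraction, with PCNA the lowest at -1.15 ± 0.17, and the median was -0.31. The response differed between fractions for 11 of the 14, all in the direction of EXO1 and MSH6, with a median of 1.47 and RFC3 the highest at 2.59 ± 0.22. MSH6 in treated cells, where the fractions differed by 0.11, was below the median of this list and EXO1 (1.53) above it. Over all genes tested, 13.8% were higher in the CCNB1-positive fraction of treated cells and 1.51% lower in that of untreated cells. The interaction was called in the direction of EXO1 and MSH6 for 4.99% of them.

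**Figure D4:**
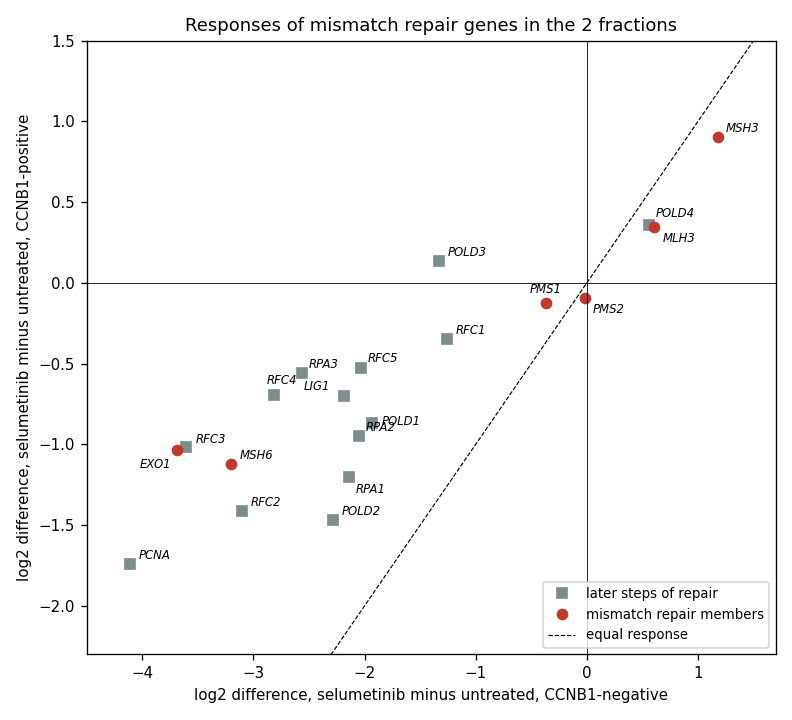
log2 difference between selumetinib-treated and untreated cells in the CCNB1-negative (x axis) and CCNB1-positive (y axis) fraction for the 6 mismatch repair members (circles) and 14 genes of the later steps (squares), with a dashed line of equal response. EXO1 and MSH6 lie above the line at the lower left with RFC3 and PCNA, and MSH3 and MLH3 lie at the upper right with POLD4.

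Cell cycle genes also differed between the groups. The 8 G1/S genes were all lower after selumetinib in CCNB1-negative cells (median -3.63) and 7 of 8 in CCNB1-positive cells (median -0.91). The latter count was 4 without untreated CCNB1-positive replicate 1, 5 without treated CCNB1-positive replicate 1 and 4 with libraries scaled to nuclear genes without MALAT1. Their summed level was 939 and 994 RPM in untreated CCNB1-negative cells, 412 and 405 in untreated CCNB1-positive cells, 97.1 and 94.0 in treated CCNB1-negative cells and 199 and 208 in treated CCNB1-positive cells. The groups of EXO1 stood in the same order, and those of MSH6 in the same order for the first 2 groups. The 8 G2/M genes were lower after selumetinib in 8 and 7 cases (medians -3.68 and -0.96) and higher in the CCNB1-positive fraction in all 8 cases in both treatments (medians 2.0 and 4.81), with sums between 90.8 and 118 RPM in treated CCNB1-negative cells and between 862 and 4214 RPM elsewhere. No gene of either list was without reads in any library. The share of reads on MALAT1 was 0.30% to 0.39% in untreated and 2.01% to 4.42% in treated libraries, and that on mitochondrial genes 4.44% to 7.80% and 11.9% to 14.8%. The part of the cell cycle in the differences of the mismatch repair genes was not tested. For these shares, libraries were also scaled to nuclear genes without MALAT1. PMS1 in CCNB1-negative cells then moved from -0.36 to -0.05, and MLH3 in CCNB1-positive cells from 0.35 to 0.60. The falls of MSH6 and EXO1 and the rise of MSH3 kept their direction and call in both fractions.

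Of 5 genes linked to MutS function or to mismatch repair by other routes, 4 passed the filter on low values. MSH5, a MutS homologue of meiosis, rose in both fractions, by 1.24 ± 0.19 in the CCNB1-negative and 1.47 ± 0.19 in the CCNB1-positive one (SE, limma adjusted p = 5.3e-05 and 2.2e-05), and in treated cells it was higher in the CCNB1-positive fraction by 0.93 ± 0.19 (adjusted p = 0.0046). SETD2, the histone methyltransferase whose mark is bound by the MSH6 protein, rose by 0.93 ± 0.17 and 0.49 ± 0.17 (adjusted p = 0.00019 and 0.020). The smaller rise was lost without untreated CCNB1-positive replicate 2 (0.31, adjusted p = 0.23) or either treated CCNB1-positive library (adjusted p = 0.096 and 0.052). FAN1, a nuclease, and MCM9, a helicase, were not called in any of the 5 comparisons, with responses of -0.17 and 0.06 in CCNB1-negative and 0.17 and 0.28 in CCNB1-positive cells. MSH4 had between 4 and 23 reads per library and was not tested.

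Some members have a gene on the other strand that starts close to their own start. AIMP2, a scaffold of tRNA synthetases whose start lies 125 bases from that of PMS2, fell by 0.95 ± 0.15 in the CCNB1-negative and 0.83 ± 0.15 in the CCNB1-positive fraction (SE, log2, limma adjusted p = 6.1e-05 and 0.00030), whereas PMS2 was not called. ORMDL1, a regulator of sphingolipid synthesis that starts 279 bases from PMS1, was lower by 0.51 ± 0.18 in CCNB1-negative cells (adjusted p = 0.019) and stood at -0.18 ± 0.18 in CCNB1-positive cells (adjusted p = 0.38). The first of these was lost without untreated CCNB1-negative replicate 2 or treated CCNB1-negative replicate 2 (adjusted p = 0.17 and 0.18) and with other scalings, among them -0.20 when libraries were scaled to nuclear genes without MALAT1.

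MSH6 is overlapped over 20748 bases by FBXO11, an F-box gene on the opposite strand, which rose by 1.22 ± 0.15 and 0.81 ± 0.15 (SE, limma adjusted p = 4.4e-06 and 0.00026) where MSH6 fell. EXO1 is overlapped at its start over 162 bases by the lncRNA gene ENSG00000288723, which is not analysed here. PMS1 and ORMDL1, on opposite strands, overlap at their starts over 280 bases. How the counting used strand is not given in the sources used here, and reads in these shared stretches could not be assigned.

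The genes with the most similar profile over the 8 libraries, by Pearson correlation of log2 values, are given as a description, since all 8 libraries share 4 groups. They were WDHD1 and MCM10 for EXO1 (r = 0.995 and 0.995), both of them replication factors, and ZBTB11 and ABHD5 for MSH6 (0.989 and 0.989). For MSH3 they were FMN1 and DNAJB4 (0.9997 and 0.999), and for MLH3 NSUN6 and STXBP5-AS1 (0.981 and 0.976). The closest profiles were less alike for PMS1, with ZRANB2 and CSTF3 (0.940 and 0.926), and for PMS2, with TRMT61B and BAG4 (0.847 and 0.821).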

How the data were processed

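Values are mRNA-seq data of HT29 cells, 2 libraries in each of 4 groups. Per the submitters' processing notes, Trim Galore 0.5.0 and HISAT2 2.1.0 were used with GRCh38. Quantification per gene was done in SeqMonk, and the authors deposited it as log2 values, scaled by total reads. The annotation release and strand setting are not given in the sources used here, and the records name another growth medium than the methods. Undoing the log2 and the constant of each library gave whole reads for 100% of genes with reads (within 0.01 read, or 0.001% above 1000 reads), and genes without reads stand at 0.9 reads before scaling. All 8 value columns were used and 0 were set aside. Reads carry no molecular identifiers.

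The 14219 genes at a mean of 1 RPM or more (log2 4.58) were tested on the deposited log2 values with limma 3.58.1 (mean-variance trend, 1 coefficient per group) in R 4.3.3, with Benjamini-Hochberg adjustment over all of them. The authors' own test was DESeq2. The contrasts were treated against untreated in each fraction, CCNB1-positive against CCNB1-negative in each treatment, and the interaction. The fit was also run on simulated counts, with changes planted in a small part of the genes and in treated CCNB1-negative cells only. Far more genes were called after selumetinib in the data, so that run does not give the error rates here. Tables and figures used Python 3.11.15, pandas 2.3.3, numpy 2.4.6 and matplotlib 3.10.9. GENCODE release 44 gave transcript lengths and neighbours (starts within 1 kb on the opposite strand) and held 99.3% of the table's identifiers. Promoters came from the RefSeq table of GRCh38.p14, where 6 members matched.

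The genes named are the 6 members, the largest and smallest change among the later-step genes with PCNA, LIG1 and POLD1, the associated factors, the neighbours (the values of 1 of them are not reported here), CCNB1 and DUSP6 from the cell cycle and ERK target lists, and for each member the 2 tested genes with the highest Pearson r. FBXO11, POLD3, RFC1 and the comparison of MSH3 with MSH6 were added after their values were seen. The members and lists were chosen with earlier results of these data known. Alternatives were an adjusted p of 0.01, no filter, a filter at 10 RPM, quantile normalization, scaling to nuclear genes without MALAT1, pseudocounts of 0.1 and 1 RPM, limma-voom on recovered reads, replicate blocks, only the groups compared, and leaving out each library.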

Additional observations from a re-analysis of the deposited data

Results flagged for a closer look

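The responses to selumetinib of EXO1 and MSH6 differed between the CCNB1 fractions by the interaction term of limma, and both are given here for that reason. For EXO1 the response was -3.69 in the CCNB1-negative and -1.03 in the CCNB1-positive fraction, a difference of 2.66 (95% interval 2.07 to 3.24). For MSH6 it was -3.20 and -1.12, a difference of 2.08 (95% interval 1.60 to 2.56). In each fraction, both treated libraries lay below both untreated libraries for both genes. The differences stayed between 2.34 and 2.79 for EXO1 and between 1.86 and 2.21 for MSH6 under the 18 alternatives run, with adjusted p-values of at most 0.00019 and 0.00022. All 8 G1/S genes and all 8 G2/M genes differed in the same direction, against 4.99% of all genes tested. The medians were 2.52 over the G1/S genes and 2.84 over the G2/M genes. The part of these genes in the result was not tested.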

How the results depend on the processing

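The falls of MSH6 and EXO1 and the rise of MSH3 in both fractions, and the different responses of MSH6 and EXO1, kept their direction and their call under all alternatives run. Of 547 values of members under alternatives, 503 kept direction and call, 21 lost a call, 3 gained one and 20 changed sign. The count of members called fell from 5 to 3 in CCNB1-negative cells at an adjusted p of 0.01 and with quantile normalization, and was 3 to 5 when 1 library was left out (3 without treated CCNB1-negative replicate 2). Between treated fractions it fell from 2 to 1 at an adjusted p of 0.01 and with only the groups compared, and was 1 to 2 when 1 library was left out (1 without treated CCNB1-negative replicate 2 or either treated CCNB1-positive library). Between untreated fractions it was 1 to 2 (1 without untreated CCNB1-negative replicate 1). Each value that changed sign was of a difference that had not been called. With libraries scaled to nuclear genes without MALAT1, which moved the median of all genes from 0.05 to 0.36 in CCNB1-negative and from 0.17 to 0.42 in CCNB1-positive cells, PMS2 was at 0.30 and 0.16 and PMS1 at 0.13 in CCNB1-positive cells. With limma-voom PMS2 was at 0.11 and 0.01. With quantile normalization MLH3 was at -0.02 in CCNB1-positive cells, PMS2 at 0.09 between untreated fractions and MSH6 at -0.00 between treated fractions. Leaving out 1 library gave PMS2 values from -0.23 to 0.19 in CCNB1-negative cells, from -0.26 to 0.07 in CCNB1-positive cells, from -0.20 to 0.13 between untreated fractions, from -0.32 to 0.10 between treated fractions and from -0.28 to 0.13 for the interaction. It gave PMS1 values from -0.27 to 0.02 in CCNB1-positive cells and from -0.25 to 0.04 between treated fractions, and MLH3 values from -0.32 to 0.09 between treated fractions. The causes were not tested.

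Same-numbered libraries deviated together within a treatment (correlation across genes 0.35 untreated, 0.43 treated) and not across treatments (-0.02 for both fractions), and nothing in the records pairs them. With the replicate number as a block, 5, 3, 2, 2 and 2 members were called in the 5 comparisons, as without it. A block of the pair of fractions in each treatment gave 3 members between untreated fractions, where PMS1 was added (-0.35, adjusted p = 0.033), and 2 and 2 in the other comparisons. Of the 14 later-step genes it gave 7 lower between untreated fractions in place of 3, 13 higher between treated fractions in place of 12 and 13 higher for the interaction in place of 11. Over all genes this block gave 1923 calls between untreated fractions in place of 408, 6671 in place of 3077 between treated fractions and 3850 in place of 758 for the interaction, and leaving out 1 library gave as few as 224, 1156 and 489. The higher and lower genes were 158 and 86 between untreated fractions and 2008 and 2182 between treated fractions with quantile normalization, in place of 194 and 214 and of 1958 and 1119. For the interaction they were 753 and 309 in place of 709 and 49. With limma-voom those between treated fractions were 1724 and 1721. The 40 and 43 reads on EXO1 in treated CCNB1-negative cells limit its precision, and 2 libraries per group limit that of every spread.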
